A study of Mus musculus with 6 samples.

Results

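The genes described here are 36 genes of blood clotting, its inhibitors and clot dissolution. They were chosen by symbol, from a list of coagulation, fibrinolysis and anticoagulant genes, out of 52459 rows of the count table, and all 36 were found. Of these, 25 encode plasma proteins made by hepatocytes, 9 encode proteins made mainly by vessel lining, macrophages or stroma, and 2 (Ggcx and Vkorc1) encode enzymes of the vitamin K cycle. RNA of 6 mouse liver tumour samples of the MYC-LAP-tTA genotype was sequenced. MYC was on in one group of 3 (MYC_On), and off in the other 3, whose titles give Day 4 (MYC_Off). All 6 samples carry the same genotype, in which a transactivator driven by a liver promoter controls a MYC transgene. As background, this directs the transgene to liver cells. Which cells of the tissue expressed it was not measured. The labels used here name no strain, age, sex or agent of inactivation, and leave unsaid if each sample is a different animal. The p-values therefore measure only how these libraries scatter, and that scatter may be technical.

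As background, clotting begins when tissue factor (F3) meets factor VII in plasma, and it proceeds through factors X and V to thrombin (F2), which turns fibrinogen into fibrin. The contact system (factors XII and XI, prekallikrein and kininogen) and factors VIII and IX amplify this. Antithrombin, heparin cofactor II, the protein C system and the tissue factor pathway inhibitor (Tfpi) restrain it, and plasmin, made from plasminogen by the activators Plat and Plau, dissolves the clot. Hepatocytes make most of these proteins. Endothelium makes factor VIII, von Willebrand factor and thrombomodulin, and macrophages make the factor XIII A chain.

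Reads counted in genes numbered 16292718 to 19265623 per library. Values below are read counts relative to library size (CPM) after TMM scaling, which corrects for a few abundant transcripts taking a large share of reads, and 1 read was worth 0.0409 to 0.0768 CPM on this scale. Myc reads, which checked the labels, stood at 779, 1018 and 854 CPM in MYC_On and at 74.8, 10.2 and 18.7 CPM in MYC_Off, in replicate order. Hepatocyte markers of the labelled liver tissue were detected in every library, with a summed level over 11 listed genes of 4410 to 9303 CPM in MYC_On and 109948 to 285158 CPM in MYC_Off. MYC_Off replicate 3 stood apart in several markers that were high in the other MYC_Off libraries and at or near their MYC_On level there. Among them were the hepatocyte marker Cyp2e1 (982, 5718 and 2.15 CPM in MYC_Off), the Kupffer cell markers Vsig4 (166, 125 and 0.461 CPM) and Clec4f (221, 272 and 0 CPM), and the stellate cell marker Reln (34.4, 104 and 0.307 CPM). No other listed hepatocyte marker was lowest in that library, and Alb was highest there (59067, 105526 and 203650 CPM in MYC_Off). Of 14130 genes tested in edgeR's quasi-likelihood test, 29.9% were called higher and 22.8% lower (52.7% in all) in MYC_Off at an adjusted p of 0.05 (Benjamini-Hochberg), so a called gene was common in this comparison.

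The liver-made factors were all higher in MYC_Off, the vessel- and macrophage-made ones nearly so, and the enzymes of the vitamin K cycle were not called. Of 25 liver-made genes 25 rose, of 9 vessel- and macrophage-made genes 8 rose, and neither vitamin K enzyme was called, against 29.9% of all genes tested called higher. The median log2 fold change (MYC_Off minus MYC_On throughout) was 3.39 for the liver-made genes, with a range of 1.35 to 7.13, and 2.68 for the vessel- and macrophage-made genes, with a range of 1.53 to 7.16. Over all genes tested the median was 0.18. All 36 genes passed the low-count filter, but F13a1 and Vwf passed only through their MYC_Off libraries, and without them the vessel- and macrophage-made median was 2.27. Levels of all 3 MYC_Off libraries lay above all 3 MYC_On libraries for 25 of 25 liver-made and 9 of 9 vessel- and macrophage-made genes, as they did for 33.2% of all genes tested. The reverse held for 0 of the 36 genes and for 29.8% of all genes tested. These counts hold for the TMM scale, include F13a1 and Vwf, and were not made under other scalings. The margin was narrow for F8, at 1.31 CPM (17 reads) in MYC_Off replicate 3 against 1.29 CPM (29 reads) in MYC_On replicate 1.

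**Figure D1:**
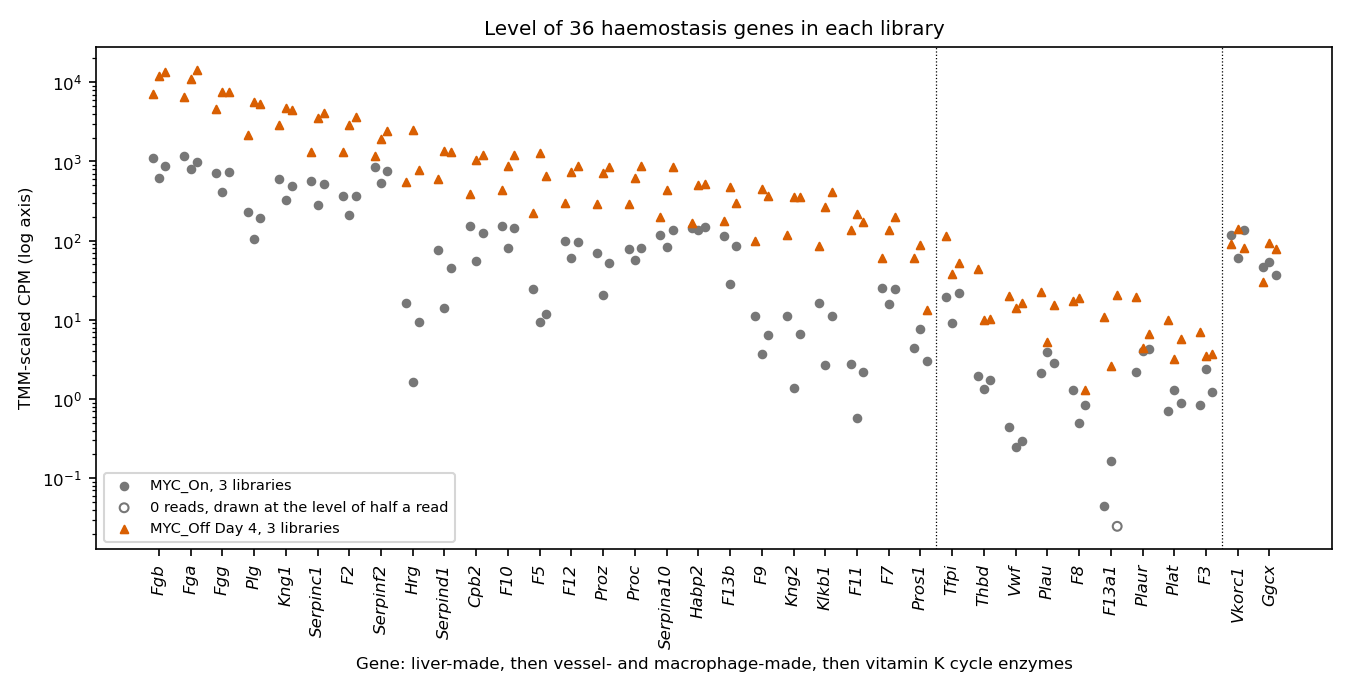
TMM-scaled CPM (log axis) of each of the 36 genes in each of the 6 libraries, with circles for MYC_On and triangles for MYC_Off Day 4, in replicate order from left to right within a gene. The fibrinogen genes reach 4566 to 14382 CPM in MYC_Off, F13a1 has 0 reads in 1 MYC_On library (open circle), and the states overlap for Vkorc1 and Ggcx only.

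Scaling by library size alone moved the median of all genes from 0.18 to -0.57. Then 22 liver-made and 5 vessel- and macrophage-made genes were called higher, against 2526 of all 14130 genes tested. The calls lost were those of F13b, Serpinf2, Habp2, F3, Plau and Tfpi. Leaving out single libraries gave 21 to 25 and 5 to 8 such calls, against 2776 to 4317 over all genes (14425 to 14941 tested). The vessel- and macrophage-made median was 2.05 with library size alone and 2.04 without MYC_Off replicate 1. Without MYC_Off replicate 2 it was 2.95, against 2.91 for the liver-made genes, so the order of the class medians turned. The lowest counts came without MYC_On replicate 2 (21 liver-made) and without MYC_On replicate 3 (5 vessel- and macrophage-made).

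**Figure D2:**
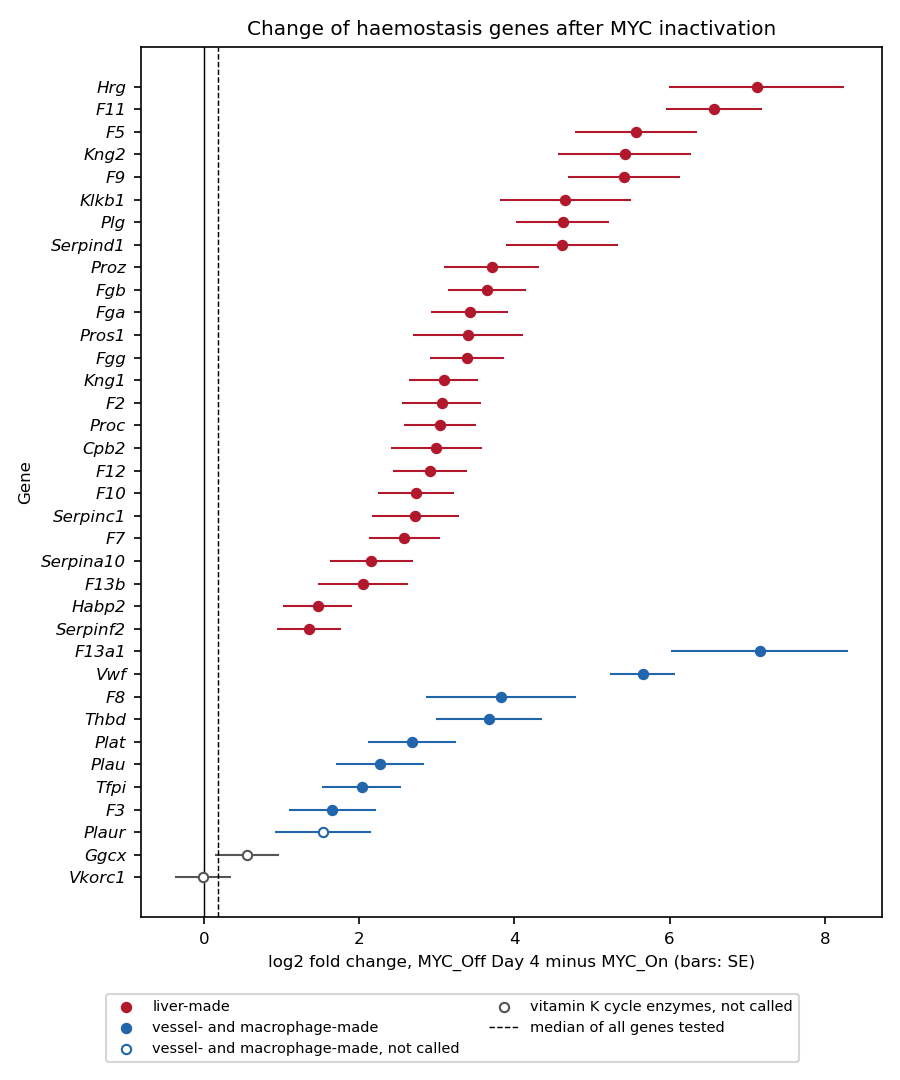
Log2 fold change of each gene (MYC_Off Day 4 minus MYC_On) with its standard error as a bar, by class; open symbols are genes with an adjusted p of 0.05 or more, and the dashed line is the median of all 14130 genes tested (0.18). Hrg and F11 lead the liver-made genes at 7.13 and 6.57, F13a1 and Vwf the others at 7.16 and 5.65, and the vitamin K enzymes lie near the dashed line.

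Fibrinogen, the precursor of fibrin, is a hexamer of 3 chains in equal number, encoded by Fga, Fgb and Fgg. Fga stood at 1183, 816 and 979 CPM in MYC_On and at 6474, 11140 and 14382 CPM in MYC_Off. Fgb stood at 1112, 626 and 872 CPM and at 7209, 11861 and 13557 CPM. Fgg stood at 717, 413 and 731 CPM and at 4566, 7449 and 7456 CPM. In every chain MYC_On replicate 2 was lowest in its group, as was MYC_Off replicate 1, and the states did not overlap. The log2 fold changes were 3.43 (SE 0.50, adjusted p = 0.00196), 3.64 (SE 0.50, adjusted p = 0.00166) and 3.39 (SE 0.47, adjusted p = 0.00173, edgeR), which differ by less than 1 SE. Together the chains took 0.251% to 0.389% of all reads in MYC_On and 1.81% to 2.39% in MYC_Off. Their share of the reads of all 36 genes was 42.4% to 46.1% and 49.5% to 57.6%. There were 1.34 to 1.98 reads of Fga for each read of Fgg in MYC_On and 1.42 to 1.93 in MYC_Off, which overlap. For Fgb there were 1.19 to 1.55 reads for each read of Fgg in MYC_On and 1.58 to 1.82 in MYC_Off, which do not overlap. That gap is narrow, and the difference in this ratio was not tested.

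The other procoagulant factors of the liver rose by very different amounts. Factor IX (F9), the protease missing in haemophilia B, stood at 11.2, 3.72 and 6.36 CPM in MYC_On and at 98.6, 447 and 362 CPM in MYC_Off (log2 fold change 5.42, SE 0.72, adjusted p = 0.00158, edgeR). Factor V (F5), the cofactor of factor X, went from 24.4, 9.29 and 11.7 CPM to 225, 1282 and 646 CPM (5.57, SE 0.79, adjusted p = 0.00187). Both were lowest in MYC_Off replicate 1 and highest in replicate 2, and without replicate 2 the change of F5 was 4.73. Prothrombin (F2) rose from 314 ± 89.3 to 2621 ± 1165 CPM (SD, n = 3), with a log2 fold change of 3.06. Factor X (F10) and factor VII (F7) were next to each other in size of change, at 2.73 (SE 0.49) and 2.58 (SE 0.46). F10 reached 841 ± 396 CPM in MYC_Off and F7 reached 132 ± 70.1 CPM (SD, n = 3), or 308 and 70.8 CPM per kilobase of exons. The factor XIII B chain (F13b), the carrier of the fibrin-linking enzyme, moved least, from 116, 28.7 and 85.2 CPM to 179, 469 and 303 CPM (2.05, SE 0.58, adjusted p = 0.0208). The call for F13b was lost without MYC_On replicate 2 (1.61, adjusted p = 0.0544), MYC_On replicate 3 (2.08, adjusted p = 0.0709) or MYC_Off replicate 2 (1.55, adjusted p = 0.0616).

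The 5 genes of the contact system rose by 2.91 (F12) to 6.57 (F11) on the log2 scale, and Hrg, grouped with them here, rose by 7.13. Histidine-rich glycoprotein (Hrg), which binds heparin and plasminogen, stood at 16.5, 1.64 and 9.32 CPM in MYC_On and at 546, 2518 and 773 CPM in MYC_Off. Its log2 fold change was 7.13 (SE 1.13, adjusted p = 0.00266, edgeR), or 6.07 without MYC_Off replicate 2 and 7.82 without MYC_On replicate 1. Factor XI (F11), which activates factor IX, stood at 2.76, 0.573 and 2.17 CPM, that is 62, 14 and 44 reads, and at 136, 217 and 172 CPM in MYC_Off (6.57, SE 0.62, adjusted p = 0.000839). F11 varied little between the MYC_Off libraries, with a coefficient of variation of 23.2% against 84.4% for Hrg. Prekallikrein (Klkb1), which releases bradykinin from kininogen, rose from 10.1 ± 6.99 to 255 ± 164 CPM (SD, n = 3), a change of 4.66 (SE 0.85). Without MYC_Off replicate 3 the change of Klkb1 was 3.99. Factor XII (F12), the start of the contact pathway, rose from 85.1 ± 20.9 to 641 ± 303 CPM (2.91, SE 0.48).

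Kininogen is encoded by 2 genes in the mouse, Kng1 and Kng2. Kng1 stood at 604, 322 and 490 CPM in MYC_On and at 2917, 4724 and 4425 CPM in MYC_Off (3.09, SE 0.45, adjusted p = 0.00191, edgeR). Kng2 stood at 11.3, 1.39 and 6.66 CPM and at 119, 357 and 354 CPM (5.42, SE 0.86, adjusted p = 0.00266), with 6.06 without MYC_On replicate 1. Kng2 thereby went from 0.430% to 1.84% of kininogen reads in MYC_On to 3.93% to 7.41% in MYC_Off, with no overlap. The genes are near copies, and reads common to both could have been split or dropped in counting, so both levels are uncertain.

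Inhibitors of clotting rose beside the factors they restrain. Antithrombin (Serpinc1), the main inhibitor of thrombin and factor X, stood at 561, 280 and 513 CPM in MYC_On and at 1314, 3494 and 4125 CPM in MYC_Off (2.72, SE 0.56, adjusted p = 0.00667, edgeR). Heparin cofactor II (Serpind1), a thrombin inhibitor, changed more, from 75.4, 14.2 and 45.8 CPM to 596, 1375 and 1335 CPM (4.61, SE 0.72, adjusted p = 0.00257). Protein C (Proc), which cuts activated factors V and VIII, rose from 71.8 ± 12.5 to 594 ± 295 CPM (3.05, SE 0.46). Protein Z (Proz) and the inhibitor it assists (Serpina10) act as a pair on factor X, and changed by 3.71 (SE 0.61) and 2.16 (SE 0.54). Serpina10 stood at 118, 83.5 and 134 CPM and at 201, 441 and 856 CPM. The call for Serpina10 was lost without MYC_On replicate 1 (2.15, adjusted p = 0.0561) or MYC_On replicate 2 (1.94, adjusted p = 0.0696), and without MYC_Off replicate 3 its change was 1.40. Exons of Zbtb37 on the other strand cover 34.4% of the exonic length of Serpinc1, and with no strand setting stated the reads there cannot be assigned.

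Protein S (Pros1), the cofactor of protein C, did not follow the other liver-made genes from library to library. It stood at 4.36, 7.74 and 3.06 CPM in MYC_On and at 59.6, 87.6 and 13.3 CPM in MYC_Off (3.40, SE 0.71, adjusted p = 0.00701, edgeR). Pros1 was highest in MYC_On replicate 2, where 24 of 25 liver-made genes were lowest, and lowest in MYC_Off replicate 3, where 15 were highest. Without MYC_Off replicate 3 the change was 3.76 (adjusted p = 0.00187). Pros1 is also made by endothelium, as background.

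Among the genes of clot dissolution, plasminogen (Plg) rose most. It stood at 232, 104 and 192 CPM in MYC_On and at 2151, 5606 and 5253 CPM in MYC_Off (4.62, SE 0.60, adjusted p = 0.00144, edgeR). Carboxypeptidase B2 (Cpb2), which protects fibrin from plasmin, rose from 111 ± 49.7 to 882 ± 437 CPM (2.99, SE 0.58). The plasmin inhibitor Serpinf2 was already abundant with MYC active, at 864, 532 and 750 CPM, and reached 1174, 1896 and 2419 CPM in MYC_Off (1.35, SE 0.41, adjusted p = 0.0281). Habp2, a protease that binds hyaluronan, stood at 146, 135 and 149 CPM and at 166, 501 and 518 CPM (1.46, SE 0.45, adjusted p = 0.0279), and MYC_Off replicate 1 was barely above MYC_On. These were the smallest changes among the liver-made genes, and both calls moved with the scaling and with the libraries used. Scaling by library size alone gave 0.56 for Serpinf2 (adjusted p = 0.168) and 0.62 for Habp2 (adjusted p = 0.146). With the 20 most abundant genes left out of the library size, the values were 0.92 (adjusted p = 0.0621) and 0.99 (adjusted p = 0.0508). Without MYC_Off replicate 1 both calls held, at 1.44 (adjusted p = 0.00885) and 1.68 (adjusted p = 0.000994). For Serpinf2 the adjusted p was 0.0869, 0.118 and 0.106 without MYC_On replicates 1, 2 and 3, and 0.051 and 0.0749 without MYC_Off replicates 2 and 3 (log2 fold changes 0.99 to 1.46). For Habp2 it was 0.0983, 0.107 and 0.0954 without MYC_On replicates 1, 2 and 3, and 0.0701 and 0.0688 without MYC_Off replicates 2 and 3 (1.09 to 1.44).

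Several of these proteins need vitamin K to become active, and the enzymes of its cycle were not called in either direction. The 7 vitamin K-dependent genes (F2, F7, F9, F10, Proc, Pros1 and Proz) had a median change of 3.06, with a range of 2.58 to 5.42. Ggcx, the carboxylase that modifies them in the endoplasmic reticulum, stood at 45.8, 54.2 and 36.8 CPM in MYC_On and at 29.9, 92.2 and 79.4 CPM in MYC_Off (0.56, SE 0.41, adjusted p = 0.286, edgeR). Vkorc1, the warfarin-sensitive reductase that recycles vitamin K, stood at 117, 59.7 and 135 CPM and at 89.9, 139 and 80.4 CPM (-0.01, SE 0.36, adjusted p = 0.977). MYC_Off replicate 1 was the lowest of all 6 libraries for Ggcx, and without it Ggcx was called higher (0.77, adjusted p = 0.0271). With library size only the estimates were -0.29 for Ggcx and -0.75 for Vkorc1, so Ggcx has no fixed direction. The summed level of the 7 substrates was 397 to 705 CPM in MYC_On and 2566 to 7139 CPM in MYC_Off, while that of the enzymes was 114 to 172 and 120 to 231 CPM. Exons of Gm21974 on the same strand cover 47.7% of the exonic length of Vkorc1, so its level is uncertain.

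Genes of the vessel lining rose from very low levels. Von Willebrand factor (Vwf), which tethers platelets and carries factor VIII, had 10, 6 and 6 reads in MYC_On, or 0.445, 0.246 and 0.296 CPM, and stood at 20.2, 14.2 and 16.2 CPM in MYC_Off. Its log2 fold change was 5.65 (SE 0.42, adjusted p = 0.000805, edgeR), and its coefficient of variation in MYC_Off, 18.1%, was the lowest of the 36 genes. Thrombomodulin (Thbd), the receptor that turns thrombin toward protein C, stood at 1.96, 1.35 and 1.73 CPM and at 44.0, 9.87 and 10.3 CPM (3.67, SE 0.68, adjusted p = 0.00463). Thbd in MYC_Off replicate 1 was several times the other libraries, and without that replicate the change was 2.43. Tfpi, the inhibitor of the tissue factor complex, had the highest level per kilobase of this class in both states and stood at 19.7, 9.004 and 21.7 CPM and at 115, 38.3 and 52.6 CPM (2.03, SE 0.51, adjusted p = 0.0136). Without MYC_Off replicate 1 Tfpi stood at 1.28, and its call was lost without MYC_On replicate 2 (1.68, adjusted p = 0.0529). The plasminogen activator Plat stood at 0.713, 1.31 and 0.888 CPM and at 9.89, 3.21 and 5.68 CPM (2.68, SE 0.57, adjusted p = 0.00719), or 2.04 without MYC_Off replicate 1.

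Factor VIII (F8), the gene of haemophilia A, was split within MYC_Off. It stood at 1.29, 0.491 and 0.838 CPM in MYC_On (29, 12 and 17 reads), at 17.3 and 18.9 CPM in MYC_Off replicates 1 and 2, and at 1.31 CPM (17 reads) in replicate 3, just above the highest MYC_On library. The change was 3.83 (SE 0.96, adjusted p = 0.014, edgeR), and the call was lost without MYC_On replicate 2 (3.49, adjusted p = 0.0659) or replicate 3 (3.75, adjusted p = 0.0594). Factor VIII is known to come mainly from the sinusoidal endothelium of the liver. Among sinusoidal markers, Clec4g stood at 18.6, 47.8 and 0.0768 CPM in the MYC_Off libraries, Lyve1 at 6.81, 9.26 and 1.38 CPM and Stab2 at 54.5, 30.3 and 14.8 CPM. All 3 were lowest in replicate 3, as were Vsig4, Clec4f, Reln and Cyp2e1, and Stab2 was highest in replicate 1. The other listed hepatocyte markers were not lowest in replicate 3. Of the stellate cell and fibroblast markers, Col1a1 (193, 117 and 429 CPM) and Col1a2 (181, 126 and 223 CPM) were highest in replicate 3, and most others were lowest there. The other listed endothelial markers were mixed. Cdh5 (183, 81.0 and 144 CPM), Pecam1, Tie1, Emcn and Robo4 were lowest in replicate 2. Eng (170, 83.3 and 50.2 CPM), Kdr, Tek and Ptprb were lowest in replicate 3. Without MYC_Off replicate 3 the F8 change was 4.27 (adjusted p = 0.00193). The part of sinusoidal cells in the F8 result was not tested, and in bulk tissue fewer cells of a type and less RNA per cell cannot be told apart.

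The macrophage- and stroma-made genes were scarce in MYC_On. The factor XIII A chain (F13a1), the enzyme that links fibrin, had 1, 4 and 0 reads there and stood at 10.99, 2.60 and 20.6 CPM in MYC_Off, which is 200, 34 and 268 reads. The fitted change of 7.16 (SE 1.14, adjusted p = 0.00272, edgeR) rests on these 5 reads, and ran from 6.39 without MYC_Off replicate 3 to 8.51 without MYC_On replicate 2. Tissue factor (F3) stood at 0.846, 2.37 and 1.23 CPM and at 6.92, 3.44 and 3.69 CPM (1.65, SE 0.56, adjusted p = 0.0397). The F3 call was lost without any of the libraries except MYC_On replicate 2: the adjusted p was 0.158 and 0.145 without MYC_On replicates 1 and 3, and 0.116, 0.0584 and 0.0525 without MYC_Off replicates 1, 2 and 3 (log2 fold changes 1.12 to 1.79). Urokinase (Plau) stood at 2.14, 3.93 and 2.81 CPM and at 22.3, 5.20 and 15.4 CPM (2.27, SE 0.57, adjusted p = 0.0139). Its call was lost without MYC_On replicate 1 (2.03, adjusted p = 0.0602) or replicate 3 (2.18, adjusted p = 0.0595), and without MYC_Off replicate 1 it stood at 1.65.

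The urokinase receptor (Plaur) stood at 2.18, 4.09 and 4.29 CPM in MYC_On and at 19.3, 4.44 and 6.68 CPM in MYC_Off. It was the 1 gene of its class that did not pass (1.53, SE 0.62, adjusted p = 0.0717, edgeR). MYC_Off replicate 2 lay barely above the highest MYC_On library. Without that replicate it passed (1.85, adjusted p = 0.0436), and without MYC_Off replicate 1 the estimate was 0.51.

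The liver-made genes and the vessel- and macrophage-made genes differed in where MYC_Off replicate 1 stood. Replicate 1 was the lowest MYC_Off library for 24 of 25 liver-made genes and the highest for 7 of 9 vessel- and macrophage-made genes, and replicate 2 was the lowest for 8 of those 9. The medians of the liver-made genes were 2.72, 3.50 and 3.63 above the MYC_On mean (log2) in replicates 1, 2 and 3, and those of the vessel- and macrophage-made genes were 3.25, 1.66 and 2.38. Replicate 3 stood above replicate 2 in both classes. Hepatocyte markers had medians of 2.40, 3.67 and 3.24, and endothelial markers 3.68, 2.38 and 2.46. In MYC_On, replicate 2 was lowest for 24 of 25 liver-made genes and had the lowest hepatocyte marker median (-0.78).

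**Figure D3:**
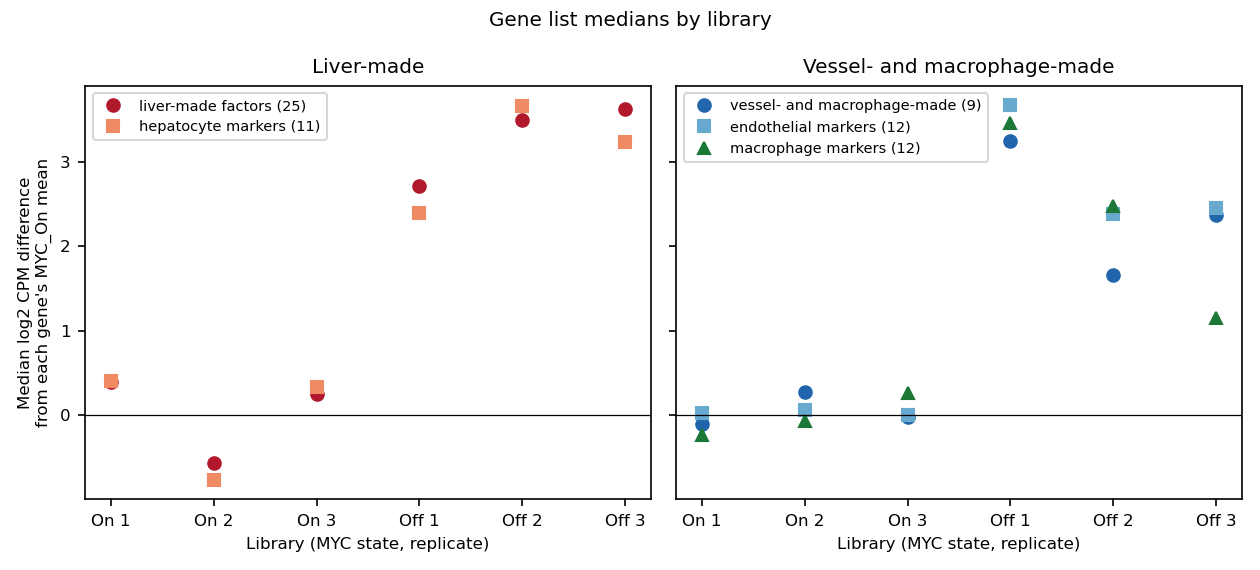
Median difference in log2 CPM from each gene's MYC_On mean, for each library, of the liver-made genes beside hepatocyte markers (left) and of the vessel- and macrophage-made genes beside endothelial and macrophage markers (right); numbers in brackets are genes per list. MYC_Off replicate 1 is the lowest MYC_Off library on the left (2.72 and 2.40) and the highest on the right (3.25, 3.68 and 3.46).

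Markers of other cell types rose along with the vessel- and macrophage-made genes. For all counts of this paragraph, 29.9% of all genes tested were called higher. Of 11 tested endothelial markers 10 were called higher, with a summed level of 82.0 to 87.3 CPM in MYC_On and 479 to 1007 CPM in MYC_Off (Cdh5 and Pecam1 the most abundant). Of 12 macrophage markers 11 were called higher, with summed levels of 392 to 700 and 1235 to 5333 CPM (C1qb and C1qa). Of 10 tested platelet markers 9 were called higher, from 4.72 to 8.14 up to 55.3 to 124 CPM (Clec1b and Ppbp), and 3 of the 12 listed, Gp6, Tubb1 and Treml1, had 0 reads in MYC_On. Clec1b held a large part of the MYC_On sums, at 2.98, 3.23 and 5.47 CPM. In MYC_Off it stood at 63.7, 26.9 and 4.46 CPM, so replicate 3 lay within the MYC_On range. Platelets carry Vwf, F5 and F13a1 as background. Of 9 tested neutrophil markers 9 rose (2.29 to 3.60 and 130 to 193 CPM, S100a9 and S100a8), as did 6 of 6 lymphocyte markers (2.67 to 3.45 and 5.61 to 205 CPM, Cd2 and Trac). Several tested platelet and neutrophil markers passed the low-count filter only through MYC_Off, so they could hardly have been called lower. Among them were Tubb1, Treml1, Gp9 (1, 0 and 0 reads in MYC_On) and Mpo (2, 0 and 2 reads). Stellate cell and fibroblast markers rose in 8 of 9 cases (144 to 152 and 1011 to 2392 CPM, Col3a1 and Dcn), and bile duct markers in 2 of 5, with 1 lower (44.2 to 104 and 86.3 to 257 CPM, Spp1 and Epcam). F13a1 was highest in MYC_Off replicate 3, where Clec4f had 0 reads. Cd14 was the only listed macrophage marker highest in that library (41.1, 17.0 and 66.4 CPM). The macrophage list median was lowest there, at 3.46, 2.48 and 1.15 above the MYC_On mean (log2) in replicates 1, 2 and 3. The part of these cells in the changes of Vwf, F13a1, Thbd, Tfpi, Plat, Plau and F3 was not tested.

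The liver-made genes were also set against hepatocyte markers of the same library. The mean log2 level of the 25 genes relative to the median of 11 hepatocyte markers was -2.66, -2.32 and -2.97 in MYC_On and -1.99, -2.56 and -2.14 in MYC_Off. That is a difference of 0.42 (exact two-sided permutation test over the libraries, p = 0.2). The smallest p that 3 against 3 libraries allow is 0.1, so this test could not pass and says nothing on whether the class differs. Relative to the markers, F5, F9, F11, Plg, Serpind1, Klkb1, Kng2 and Hrg were higher in all 3 MYC_Off libraries than in any MYC_On library, 8 of 25, against 2.17% of all genes tested. F13b, Serpinf2, Serpina10 and Habp2 were lower in all 3, 4 of 25, against 73.9% of all genes tested. The hepatocyte markers themselves rose, with medians of 2.40, 3.67 and 3.24 above the MYC_On mean (log2) in MYC_Off, so most genes fall on this scale. Both shares over all genes follow from that rise and do not show that the liver-made class is unusual. The extremes were Hrg at 4.08 and F11 at 3.49 above, and Habp2 and Serpinf2 at -1.92 and -1.89. Of the vessel- and macrophage-made genes only Vwf was higher in all 3 libraries on this scale, and the class mean differed by -0.25 (exact permutation p = 0.8). The same limit holds for that test, which says nothing on whether this class differs.

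**Figure D4:**
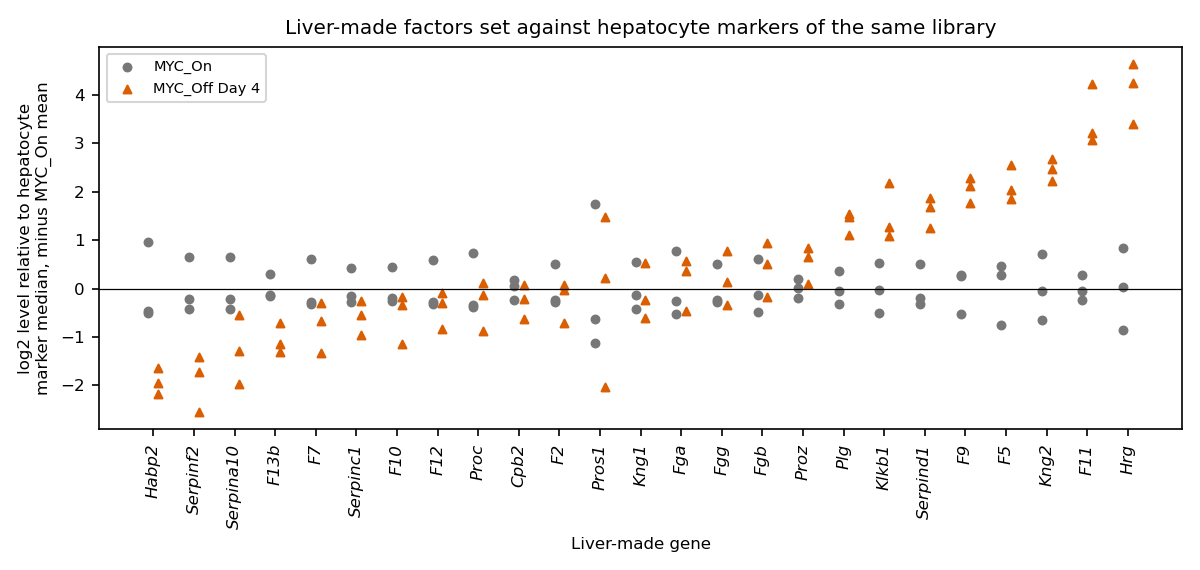
Log2 level of each liver-made gene relative to the hepatocyte marker median of the same library, minus its MYC_On mean; circles are MYC_On and triangles MYC_Off Day 4 libraries, 3 each. Genes are ordered by the difference between states, from Habp2 (-1.92) to Hrg (4.08), and Pros1 is widely scattered in both states.

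Several members lie side by side in the genome (mm10), and neighbours differed in how alike their changes were. The fibrinogen genes Fgg, Fga and Fgb span 42.1 kb of chromosome 3 (83007724 to 83049863), and their changes differed by 0.26 at most on the log2 scale. F7, F10 and Proz span 50 kb of chromosome 8 (13026034 to 13076026), with changes between 2.58 and 3.71. F11 and Klkb1 lie within 53.7 kb of chromosome 8 (45241174 to 45294859) and changed by 6.57 and 4.66. Exons of Gm45753 on the same strand cover 43.2% of the exonic length of Klkb1, so its level is uncertain. Hrg, Kng2 and Kng1 span 131 kb of chromosome 16 (22951072 to 23082078), and there the changes ran from 7.13 through 5.42 to 3.09. The differences between neighbours were not tested. All 36 genes are annotated as protein coding in GENCODE M21.

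Promoters are shown for 4 liver-made genes with steep or concerted changes (Fgb, F9, F11 and Hrg) and, for contrast, for Vkorc1, which was not called. Each is the 200 bases before the RefSeq start (GRCm38.p6), read 5′ to 3′ on the gene's strand, and none overlaps an annotated exon. Capitals mark matches to the motifs given after the sequences.
Fgb, chr3:83049864-83050063, minus strand: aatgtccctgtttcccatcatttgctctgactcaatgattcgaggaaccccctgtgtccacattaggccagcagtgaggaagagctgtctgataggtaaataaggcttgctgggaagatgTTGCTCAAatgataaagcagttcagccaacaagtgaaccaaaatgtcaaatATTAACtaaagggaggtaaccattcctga
F9, chrX:59999264-59999463, plus strand: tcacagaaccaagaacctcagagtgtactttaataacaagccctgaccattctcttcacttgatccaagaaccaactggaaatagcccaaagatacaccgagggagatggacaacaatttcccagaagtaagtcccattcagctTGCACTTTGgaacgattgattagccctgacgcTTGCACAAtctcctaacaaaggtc
F11, chr8:45262032-45262231, minus strand: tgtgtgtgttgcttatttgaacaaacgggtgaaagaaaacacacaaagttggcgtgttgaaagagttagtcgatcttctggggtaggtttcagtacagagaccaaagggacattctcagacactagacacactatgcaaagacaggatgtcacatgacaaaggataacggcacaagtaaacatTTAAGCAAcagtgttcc
Hrg, chr16:22950872-22951071, plus strand: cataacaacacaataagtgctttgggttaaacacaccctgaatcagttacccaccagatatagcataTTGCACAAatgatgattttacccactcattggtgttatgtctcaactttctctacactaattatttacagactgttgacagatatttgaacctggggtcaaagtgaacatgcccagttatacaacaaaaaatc
Vkorc1, chr7:127895618-127895817, minus strand: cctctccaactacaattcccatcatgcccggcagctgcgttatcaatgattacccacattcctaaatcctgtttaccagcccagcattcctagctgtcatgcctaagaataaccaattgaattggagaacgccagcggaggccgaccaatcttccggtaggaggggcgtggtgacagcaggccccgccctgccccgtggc

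The motifs were searched on both strands in the 250 bases before the start, in 30 promoter entries of 28 of the 36 genes, and in all 32851 entries of the table. The hepatocyte factor HNF1 motif GTTAAT was in 5 of 21 liver-made promoters (23.8%; F13b, Fga, Fgb, Habp2 and Proz) against 6.43% of all entries. A C/EBP motif, TTGCNNAA, was in 8 of 21 (38.1%; F9, F11, Fga, Fgb, Habp2, Hrg, Klkb1 and Kng2) against 9.56%, and in 1 of 7 vessel- and macrophage-made entries (Plaur) and in the Ggcx promoter. Every liver-made promoter shown holds this C/EBP motif, so those shown do not stand for the class. F5, Serpind1 and Fgg, not shown, hold none of the motifs searched, and Ggcx, like Vkorc1, was not called. No link between a motif and a change was tested. The HNF4 motif CAAAGTNCA was in the F9 promoter alone (1 of 21), 56 bases before the start, against 1.19% of all. In Fgb the HNF1 motif lies 29 bases and the C/EBP motif 80 bases before the start. The E-box CACGTG, the motif of MYC and its partner MAX, was in 0 of the 30 entries, against 6.02% of all. The matches do not overlap in the sequences shown. A match describes letters only, and its absence concerns this window only.

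Levels of different genes can be compared only per length, here as CPM per kilobase of merged exons. On this scale Fga, Fgg and Fgb led in MYC_Off, at 3543 ± 1321, 3101 ± 796 and 2855 ± 863 (SD, n = 3), and did not differ beyond their spread. Kng1 (1238 ± 298) and Plg (1169 ± 512) followed, also within their spread, then Serpinf2 (787 ± 269), Hrg (641 ± 541) and F2 (570 ± 254). The order differed with MYC active, where Fga (330), Serpinf2 (308) and Fgg (296) led. Hrg moved from rank 21 to rank 7 of the 36 and Serpind1 from 17 to 10, while Vkorc1 went from 6 to 18 and Habp2 from 12 to 17. The lowest in MYC_Off were Plat (1.00 ± 0.541), Vwf (1.05 ± 0.19) and F8 (1.26 ± 0.981). The median per kilobase in MYC_Off was 308 for the liver-made and 1.85 for the vessel- and macrophage-made genes.

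Other genes of haemostasis outside the 36 moved in the same direction for the most part. Of 25 listed genes 23 were tested, of which 17 rose, 1 fell and 5 were not called, with a median log2 fold change of 3.28, against 29.9% of all genes called higher. Among those that rose, Adamts13 (4, 0 and 1 reads in MYC_On) and F2rl2 (5, 3 and 0 reads) passed the low-count filter only through MYC_Off. They could hardly have been called lower, and they count in this median. The smallest adjusted p values belonged to Asgr1, a receptor that clears desialylated glycoproteins (6.81, SE 0.68), Serping1, the C1 inhibitor of the contact system (5.11, SE 0.45), and Thbs1, a platelet and matrix protein (3.45, SE 0.38). The steepest change was that of Fgl1, a fibrinogen-like protein of the liver (8.42, SE 0.97). The only decrease was in F2rl1, a protease-activated receptor, from 37.2 ± 2.96 to 9.58 ± 4.43 CPM (-1.95, SE 0.38, adjusted p = 0.00551, edgeR). Without MYC_On replicate 2, 11 of 24 were called higher, and over all genes 2776 of 14871 were called higher in that setting.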

How the data were processed

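RNA of 6 liver tumour samples was sequenced, in 2 groups of 3. The authors deposited raw read counts per gene. Per the submitters' processing notes, Trimmomatic, STAR, Picard, featureCounts and DESeq2 were used with the mm10 build. Tool versions, the strand setting and how multi-mapping reads were treated were not given in the sources used here. Counts were fitted with edgeR 4.0.16 in R 4.3.3 (limma 3.58.1): robust quasi-likelihood test, filterByExpr with a minimum count of 10, TMM scaling, Benjamini-Hochberg adjustment over 14130 genes and a threshold of 0.05. The procedure was run on simulated data in which few genes changed, so that run did not test the scaling under a change as broad as the one here. SE is the log2 fold change over the root of F. Alternatives included DESeq2 1.42.0, other scalings, filters and thresholds, a replicate block and leaving out libraries. The alternative without MYC_On replicate 2 and MYC_Off replicate 1 was chosen after seeing the data. Coordinates are from GENCODE M21. The members and lists were chosen with earlier results of these data known. All 36 members are named, with the 3 smallest adjusted p in each direction of the other haemostasis list and the 2 most abundant markers of each cell type. Fgl1, Clec4g, Lyve1, Stab2, Clec4f, Vsig4, Cd14, Reln, Cyp2e1, Gp6, Tubb1 and Treml1 were chosen after their values were seen. So were Gp9, Mpo, Alb, Col1a1, Col1a2, Tie1, Emcn, Robo4, Kdr, Tek, Eng, Ptprb, Adamts13 and F2rl2. No libraries held identical counts.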

Additional observations from a re-analysis of the deposited data

How the results depend on the processing

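None of the 36 members reversed a called direction under the alternatives run. The 8 calls among vessel- and macrophage-made genes became 5 with library size only, 5 with a replicate block, 4 at an adjusted p of 0.01 and 5 without MYC_On replicate 2 and MYC_Off replicate 1 (chosen after seeing the data), and 5 to 8 without single libraries. The liver-made calls stayed between 21 and 25 (22 with the block). Over all genes, 7443 calls became 4257 at 0.01 and 4049 with a minimum-fold test, and 5123 to 7808 without single libraries (5763 with the block). The liver-made median of 3.39 was 2.61 with library size only and 2.91 to 3.26 without single libraries, and the other haemostasis calls were 11 to 17 (14 with the block). The vessel- and macrophage-made median per kilobase was 2.88 with the longest transcript. Of the calls over all genes, 56.7% pointed up under TMM, 32.2% under plain library size and 42.8% when the 20 most abundant genes were left out of it. Of 33 called members, 25 kept the call in all 17 alternatives. In deviations from the group mean, libraries of the same replicate number correlated at -0.26, -0.17 and 0.04, and not every sample correlated best with its own number. With 3 libraries per group, these values cannot show whether the samples were paired. The cause of the shifts between settings was not tested. Depth limits F13a1, F8 and Vwf in MYC_On.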
